A study of Mus musculus with 40 samples.

Results

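Follistatin and the activin subunits were followed across 40 mouse livers by 14 probe sets of 8 genes, out of 18193 genes that had a probe set of their own on the array. The genes were chosen by name, with results of these same arrays already known: follistatin (Fst), the related secreted protein Fstl1, the inhibin beta subunits Inhba, Inhbb, Inhbc and Inhbe, the receptor Acvr2a and the inhibitory Smad7. No threshold was applied in choosing them, and which values prompted the choice is not recorded. The changes and adjusted p-values given for them are therefore descriptions of these arrays and are not offered as independent support for anything. A further probe set, shared between Acvr2a and Orc4, was left out.

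Each array held the liver RNA of 1 male C57BL/6J mouse of 12 weeks on AIN-76A diet. Wt mice and Nrf2-null mice (Nrf2-/-, bred from Nrf2-heterozygous mice of the inbred line) each received 1 of 5 treatments, with 4 mice in each of the 10 groups. The treatments were the vehicle (10% Cremophor-EL and 10% DMSO in PBS), 300 μmol/kg of the dithiolethione D3T, or CDDO-Im, a synthetic triterpenoid, at 3, 10 or 30 μmol/kg, all by gavage. Each mouse was treated 3 times over 5 days and killed 24 h after the last treatment. Both compounds are inducers of Nrf2, the transcription factor that raises detoxication enzymes, and the constitutive knockout removes it from every cell of the body.

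Activins are dimers of inhibin beta subunits. They bind type II receptors such as Acvr2a, which recruit type I receptors such as Acvr1b and pass the signal on through Smad2 and Smad3, and Smad7 is induced by the pathway and holds it back. Follistatin binds activins and keeps them from their receptors. In liver it is secreted by hepatocytes and is known to respond to glucagon and fasting, while Inhbc and Inhbe are subunits made largely by hepatocytes.

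Inhbc and Inhbe are neighbouring genes on the same strand of chromosome 10, and only Inhbc was called at 10 μmol/kg CDDO-Im against vehicle in Wt liver, so the 250 bases before each start are shown. They are from the RefSeq promoter table, build GRCm38.p6, reverse strand, written 5′ to 3′, with a CCAAT box in capitals. Inhbe lies at chr10:127351849-127352098 and Inhbc at chr10:127370549-127370798.
Inhbe: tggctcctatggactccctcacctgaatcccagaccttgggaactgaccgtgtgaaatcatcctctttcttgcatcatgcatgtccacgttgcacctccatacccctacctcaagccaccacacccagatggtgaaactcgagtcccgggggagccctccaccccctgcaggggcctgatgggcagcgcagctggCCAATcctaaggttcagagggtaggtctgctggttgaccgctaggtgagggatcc
Inhbc: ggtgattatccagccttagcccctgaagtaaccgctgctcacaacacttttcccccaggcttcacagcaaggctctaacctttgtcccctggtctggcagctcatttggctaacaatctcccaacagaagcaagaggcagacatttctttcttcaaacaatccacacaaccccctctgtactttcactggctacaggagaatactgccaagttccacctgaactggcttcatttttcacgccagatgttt

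Promoters were matched for 6 of the 8 genes, Inhba, Inhbb, Inhbc, Inhbe, Fstl1 and Acvr2a, and Fst and Smad7 had no entry. Both strands of those 250 bases were searched for 6 motifs. The core of the antioxidant response element, TGACNNNGC, stood in none of the 6 promoters and in 10.2% of 32851 promoters of the same length. The FoxO site TGTTTAC, in 3.17% of all promoters, the cAMP response element TGACGTCA, in 1.55%, and the E-box CACGTG, in 6.02%, were likewise found in none of the 6. The D-box TTATGTAA, in 0.819% of all promoters, stood 123 bases before the start of Inhba, and CCAAT, in 33.8%, stood 55 bases before the start of Inhbe. None of these motif sequences contains another. These are matches of letters in a short window and no more.

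The values are log2 GCRMA intensities, so that 1 unit is a doubling, and levels of different probe sets are not compared with each other. Testing took in the probe sets with a log2 value of 4 or more in 3 or more mice of a group, and 11 of the 14 met this. A difference was called when its adjusted p-value in limma (Benjamini-Hochberg over all 18935 tested probe sets) was under 0.05, and errors on differences are standard errors. Nfe2l2, which encodes Nrf2, was between 10.77 and 11.75 in the 20 Wt mice and between 2.72 and 3.10 in the 20 Nrf2-null mice on 1416543_at, and between 4.49 and 7.10 against 5.96 and 7.47 on 1457117_at. Of 10 known Nrf2 targets, 4 rose in Wt mice with D3T, where 3.66% of all genes were called. With 3, 10 and 30 μmol/kg CDDO-Im 1, 5 and 7 rose, where 0.80%, 17.3% and 22.3% of all genes were called. In Nrf2-null liver none was called against vehicle. There 3.94% of all genes were called with D3T, and 1.01%, 0.24% and 0.53% with 3, 10 and 30 μmol/kg CDDO-Im. Hepatocyte markers were high in every mouse, at a mean log2 value of 15.13 to 15.48 over 5 markers. The T cell markers Cd3e and Cd3g were under the minimum. In whole liver, fewer cells of a type and less RNA per cell cannot be told apart.

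Fst had its lowest mean in the Wt livers given 10 μmol/kg CDDO-Im. On its brighter probe set, 1434458_at, the 4 vehicle mice were at 8.48, 8.03, 7.70 and 6.70. The mice given 10 μmol/kg were at 5.79, 5.86, 2.83 and 2.94. The groups did not overlap, and within the treated group 2 mice were close to the median of all 45037 probe sets on an array (2.75 to 2.83), where a fold is no longer exact. Fst fell by 3.37 ± 0.72 on the log2 scale (adjusted p 0.0017). The dimmer probe set, 1421365_at, was at 7.26, 7.02, 6.73 and 5.70 with vehicle and at 5.97, 5.94, 5.32 and 5.06 at 10 μmol/kg. These groups overlapped, and the difference of -1.10 ± 0.57 was not called (adjusted p 0.19).

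No change of Fst was called at the doses on either side. At 3 μmol/kg the brighter probe set was at 7.60, 6.92, 7.69 and 7.42, within the range of the vehicle mice. The mice at 30 μmol/kg were at 6.91, 7.52, 5.77 and 6.84, a difference of -0.96 ± 0.72 from vehicle that was not called (adjusted p 0.37). With D3T the mice were spread from 5.32 to 8.68, with a difference of -0.66 ± 0.72 (adjusted p 0.72). Compared directly with D3T, a different compound at a different dose, 10 μmol/kg CDDO-Im gave an Fst level lower by 2.70 ± 0.72 (adjusted p 0.009), with overlapping mice. Nqo1, a quinone reductase and Nrf2 target, rose by 2.31 ± 0.32 at 10 and by 4.09 ± 0.32 at 30 μmol/kg.

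**Figure D1:**
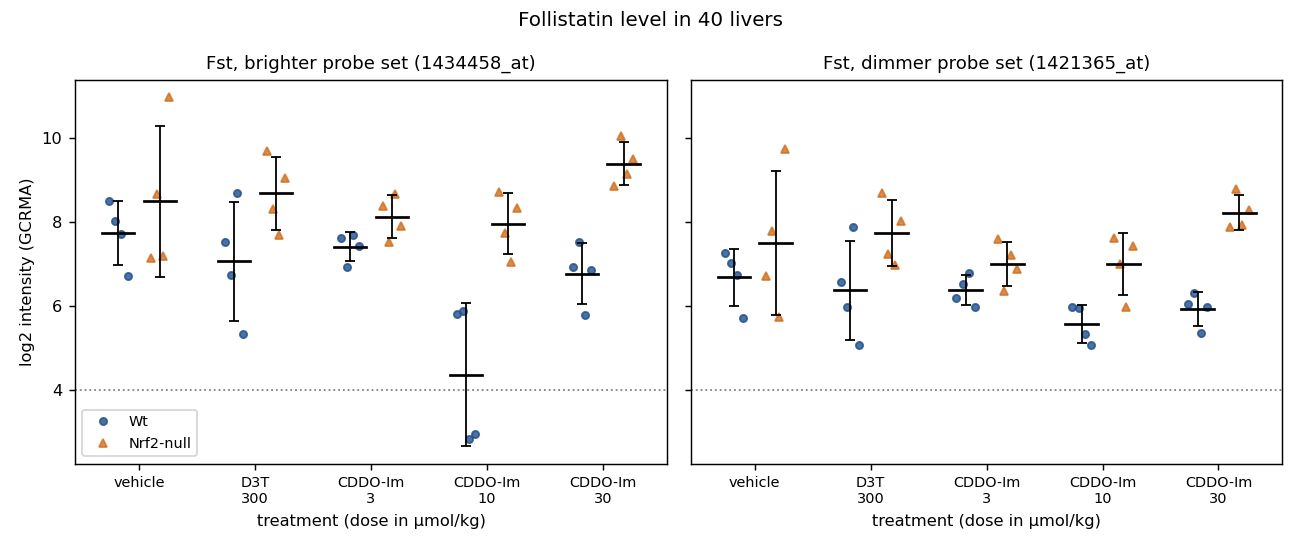
Level of Fst on its 2 probe sets in each of 40 livers, as log2 GCRMA intensity against treatment (dose in μmol/kg); blue circles are Wt mice, orange triangles Nrf2-null mice, the bar and whiskers the mean and SD of 4 mice, and the dotted line the minimum of 4. On the brighter probe set the 4 Wt mice at 10 μmol/kg CDDO-Im lie between 2.83 and 5.86, below all 4 Wt vehicle mice.

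In Nrf2-null liver Fst was not called against vehicle with any treatment. The vehicle mice themselves ranged from 7.13 to 10.96, wider than any other Nrf2-null group. At 10 μmol/kg CDDO-Im the Nrf2-null mice were at 8.70, 7.72, 7.04 and 8.34, a difference of -0.54 ± 0.72 (adjusted p 0.82). Those at 30 μmol/kg were at 8.85, 10.03, 9.13 and 9.50, a difference of 0.89 ± 0.72 (adjusted p 0.74). The response to 10 μmol/kg in Wt liver less that in Nrf2-null liver was -2.83 ± 1.02 on the log2 scale, and this difference was not called (adjusted p 0.086). It ranged from -3.66 to -2.32 as each of the 16 mice was left out. It was called at -3.66 without the highest Nrf2-null vehicle mouse (adjusted p 0.014) and at -3.33 without Wt 10 μmol/kg replicate 2 (adjusted p 0.05).

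Within a treatment, Fst was higher in Nrf2-null than in Wt liver at both higher doses of CDDO-Im. At 10 μmol/kg the brighter Fst probe set was 3.59 ± 0.72 higher in Nrf2-null liver (adjusted p 0.0013), and at 30 μmol/kg 2.62 ± 0.72 higher (adjusted p 0.0058). The dimmer probe set overlapped at 10 μmol/kg and was not called (1.43 ± 0.57, adjusted p 0.091). At 30 μmol/kg it was at 7.88, 8.78, 7.92 and 8.28 in Nrf2-null mice against 6.04, 6.31, 5.35 and 5.96 in Wt mice, a difference of 2.30 ± 0.57 (adjusted p 0.0022). At that dose the mice of the genotypes did not overlap on either probe set. With vehicle the difference was 0.76 ± 0.72 (adjusted p 0.56), at 3 μmol/kg 0.71 ± 0.72 (adjusted p 0.63) and with D3T 1.62 ± 0.72 (adjusted p 0.17), with overlapping mice in each case.

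Ordered by mean level on the brighter probe set, all 5 Wt groups lay below all 5 Nrf2-null groups, from 4.36 ± 1.70 (SD, n = 4) in Wt mice at 10 μmol/kg to 9.38 ± 0.51 (SD, n = 4) in Nrf2-null mice at 30 μmol/kg. Each of the 9 pairs of neighbouring groups in this order overlapped. The dimmer probe set gave the same order of groups. Neighbours also overlapped in the order of each of the other 10 tested probe sets. Over the 40 arrays the Fst probe sets moved together (r = 0.898). Among all other tested genes, Efna1 (r = 0.865), Zdhhc14 (0.83), Btg2 (0.813), Plk2 (0.803) and Meis2 (0.803) had the pattern most like Fst, as Pearson correlations over 40 arrays that share groups.

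Fstl1 is a secreted glycoprotein with a follistatin-like domain. Its brighter probe set, 1448259_at, ran from 6.73 to 7.47 in Wt vehicle mice and from 5.86 to 6.74 at 30 μmol/kg CDDO-Im. The difference of -0.70 ± 0.30 was not called (adjusted p 0.093), and no comparison of Fstl1 was called on either probe set. The gene most like it over the 40 arrays was Col3a1 (r = 0.891), a collagen of stellate cells, followed by Lamb1 (0.814) and Fbln5 (0.793). The 8 measured stellate cell markers, with Des under the minimum, had a mean log2 value of 8.60 to 8.99 in Wt vehicle mice and 8.36 to 8.71 at 30 μmol/kg, and none of them was called. Their part in the Fstl1 values was not tested.

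Of the 4 beta subunits, Inhbb gave no clear signal. Its probe sets were at or under 3.03 in all but 1 of the 20 Wt mice, at 3.18 in that one, and over 4 in 2 Nrf2-null mice, at 5.68 under D3T and 4.35 under 10 μmol/kg CDDO-Im. Inhba, the subunit of activin A, was measured by 1422053_at, while 1458291_at stayed between 2.20 and 2.22 in every mouse. Inhba was at 6.90, 9.37, 7.44 and 8.13 in Wt vehicle mice and at 7.41, 7.08, 7.23 and 6.98 at 10 μmol/kg CDDO-Im. The groups overlapped, and the difference of -0.78 ± 0.33 was not called (adjusted p 0.099). Its size depended on the vehicle mice: without replicate 1, the lowest, the difference was -1.14 and was called (adjusted p 0.016), and without replicate 2, the highest, it was -0.32 (adjusted p 0.53). In Nrf2-null mice Inhba was at 6.90, 6.31, 7.46 and 7.54 with vehicle and at 8.47, 8.17, 8.12 and 7.0 with D3T, a difference of 0.89 ± 0.33 (adjusted p 0.12), which ranged from 0.64 to 1.20 as each mouse was left out and was called only without D3T replicate 4 (adjusted p 0.027). The difference between the genotypes in the response to 30 μmol/kg, at -1.35 ± 0.47 (adjusted p 0.056), lay just outside the threshold, and was -0.88 (adjusted p 0.16) without the highest Wt vehicle mouse. With E2f8, the gene most like it, Inhba had r = 0.695, the weakest such value among the genes described here.

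**Figure D2:**
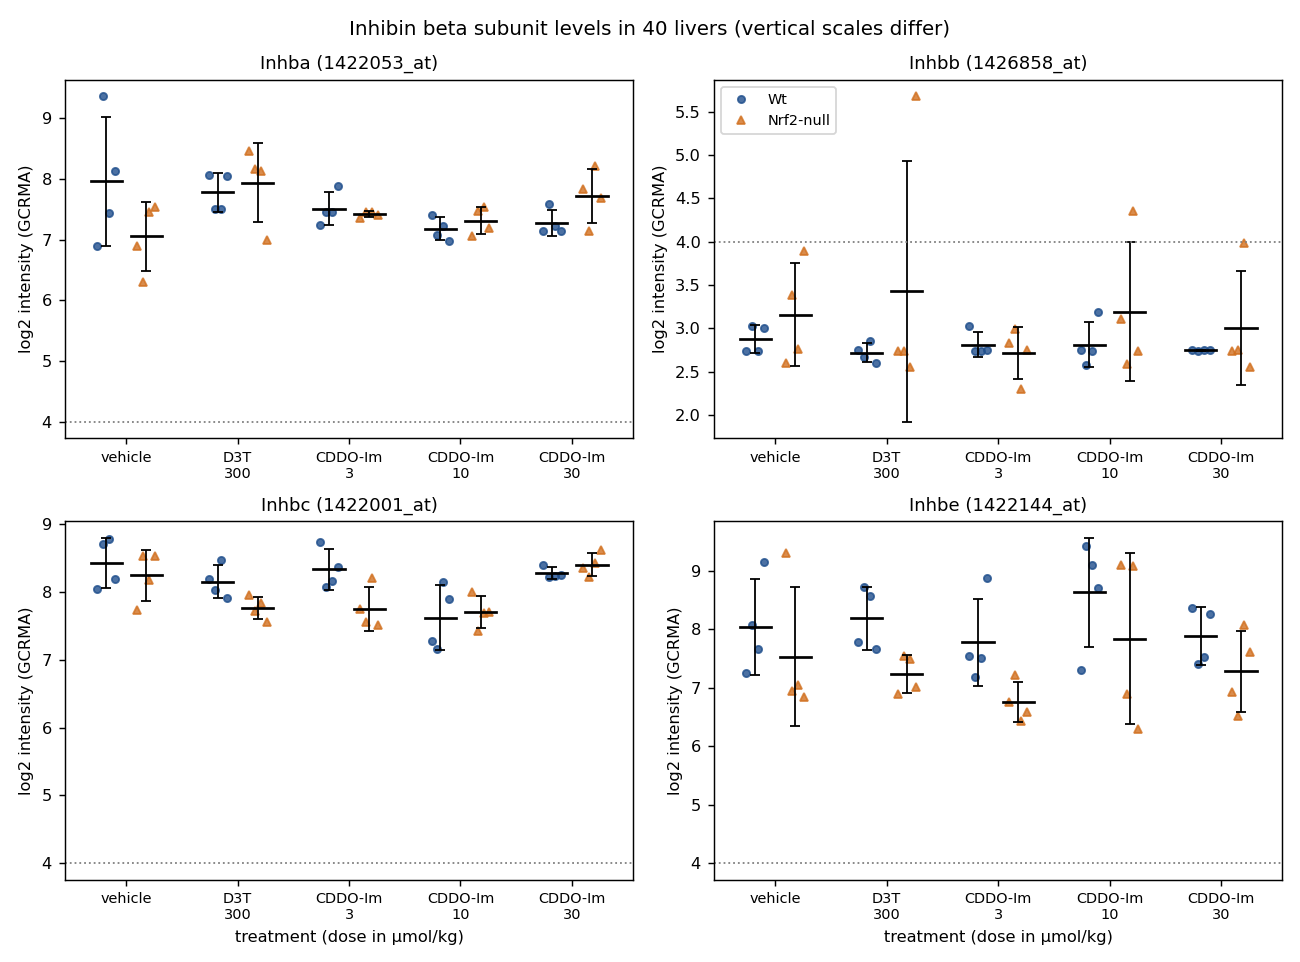
Levels of the 4 inhibin beta subunits in each of 40 livers, as log2 GCRMA intensity against treatment (dose in μmol/kg), with blue circles for Wt mice, orange triangles for Nrf2-null mice, mean and SD of 4 mice, and a dotted line at the minimum of 4; vertical scales differ. Inhbc is lower in Wt mice at 10 μmol/kg CDDO-Im, from 7.16 to 8.14 against 8.05 to 8.78 with vehicle, and Inhbb is under the dotted line in all but 2 mice, at 5.68 and 4.35.

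Inhbc fell at the same dose as Fst, but by less. The Wt mice were at 8.05, 8.71, 8.78 and 8.18 with vehicle and at 7.27, 7.16, 8.14 and 7.89 with 10 μmol/kg CDDO-Im, so that 1 treated mouse was just above the lowest vehicle mouse. The change was -0.81 ± 0.20 (adjusted p 0.0055), a level 1.75-fold lower. At 30 μmol/kg the level was 8.22 to 8.40 and the difference -0.15 ± 0.20 (adjusted p 0.64). The 2 Wt mice with the lowest Inhbc at 10 μmol/kg were not those with the lowest Fst. In Nrf2-null liver, D3T, 3 μmol/kg and 10 μmol/kg gave differences of -0.48, -0.50 and -0.54 (each ± 0.20), none of which was called (adjusted p 0.17, 0.23 and 0.22). As each mouse was left out, the difference at 10 μmol/kg ranged from -0.71 to -0.44 and was called only without Nrf2-null vehicle replicate 1 (adjusted p 0.038). The genotypes were not shown to differ in the response to 10 μmol/kg (-0.27 ± 0.28, adjusted p 0.63). The genes most like Inhbc were Lman2l (r = 0.795), Ints12 (0.753) and Taf13 (0.744).

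Inhbe, the subunit of activin E, was not called in any comparison. In Wt mice it was at 7.26, 8.07, 7.66 and 9.15 with vehicle and at 7.31, 9.42, 9.09 and 8.71 with 10 μmol/kg CDDO-Im, a difference of 0.60 ± 0.57 (adjusted p 0.52). The groups overlapped across most of their range. In Nrf2-null mice 1 of 4 was high with vehicle, at 9.31 against 6.83 to 7.04, and 2 of 4 were high with 10 μmol/kg, at 9.09 and 9.08 against 6.89 and 6.30. The genes most like Inhbe were Adcy6 (r = 0.791), Slc20a1 (0.780) and Stbd1 (0.778).

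Clock genes differed between these same mice, and their values stand here beside the Fst, Inhbc and Inhbe results. A clock score was formed as the mean log2 level of 7 genes of the evening phase, such as Dbp and Per2, less that of 5 of the morning phase, such as Arntl and Npas2. Wt mice at 10 μmol/kg CDDO-Im had scores of 2.30 to 3.99, against -2.84 to -2.54 with vehicle, -2.99 to -2.48 at 3 μmol/kg and -2.52 to -2.26 at 30 μmol/kg. With D3T the Wt scores were -1.43 to 0.49. The Nrf2-null vehicle mouse with high Inhbe had a score of 3.08, and the 2 such mice at 10 μmol/kg had 1.99 and 2.33, while the other mice of these groups were at -2.37 or less. Inhbe and the score did not go together in every mouse. Wt replicate 4 had Inhbe at 9.15 with a score of -2.54 under vehicle and at 8.87 with -2.99 at 3 μmol/kg, and Wt replicate 1 at 10 μmol/kg had Inhbe at 7.31 with a score of 2.44. In Nrf2-null D3T replicate 4, the array least like the rest of its group, Inhbe was at 7.01 with a score of 1.16. With the score as a covariate, the change at 10 μmol/kg in Wt liver was -2.20 ± 1.00 for Fst (adjusted p 0.30) and -0.59 ± 0.28 for Inhbc (adjusted p 0.33), and neither was called. Most calls in this comparison were lost: over all 18935 probe sets, 1260 higher and 1951 lower became 59 and 49. The difference in Inhbe turned from 0.60 to -1.52 ± 0.62 and was again not called (adjusted p 0.23). The difference between 10 μmol/kg and D3T in Fst, at -2.07 (adjusted p 0.10), was then not called either. Score and dose separate the Wt vehicle and 10 μmol/kg mice in the same way, so that within these 2 groups they cannot be told apart. The fit used 1 slope of the score for all 10 groups. Within groups, the score varied most in Nrf2-null mice given vehicle or 10 μmol/kg (SD 3.07 and 2.67). In the same Wt groups the SD was 0.14 and 0.81. The Wt changes with the score in the fit therefore rest largely on a slope set by Nrf2-null mice. On the brighter probe set, the higher Fst in Nrf2-null than in Wt liver at 10 μmol/kg was still called with the score in the fit (2.98 ± 0.80, adjusted p 0.019). On the dimmer probe set it was not called (1.01 ± 0.63, adjusted p 0.35).

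**Figure D3:**
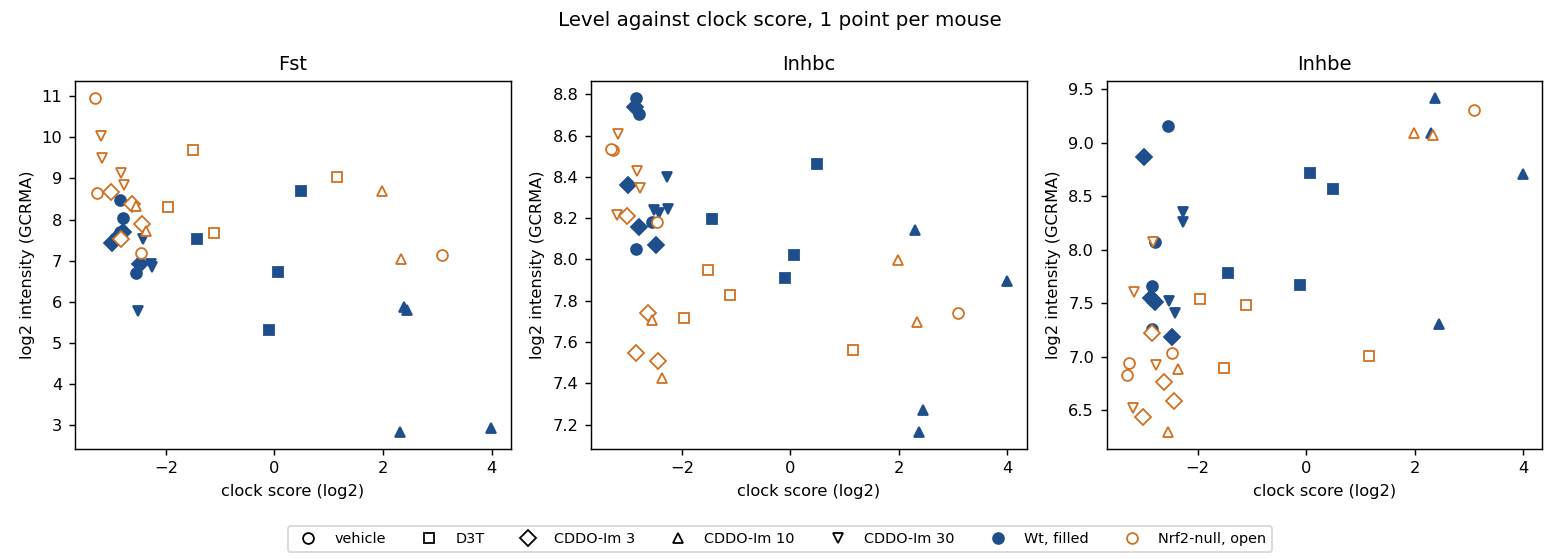
Level of Fst, Inhbc and Inhbe (log2 GCRMA intensity) against the clock score (difference of 2 mean log2 levels), with 1 point per mouse; filled blue symbols are Wt, open orange symbols Nrf2-null, and shapes give the treatment. The 4 Wt mice at 10 μmol/kg CDDO-Im lie at scores of 2.30 to 3.99, away from all other Wt mice, and the 3 Nrf2-null mice with Inhbe over 9 lie at 1.99 to 3.08.

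Acvr2a, the type II receptor for activins, fell in Wt liver at the highest dose of CDDO-Im. On 1437382_at the mice were at 9.51, 9.59, 9.44 and 9.63 with vehicle and at 9.16, 9.06, 8.88 and 9.13 at 30 μmol/kg. The groups did not overlap, and the change of -0.49 ± 0.11 (adjusted p 0.0015) was a level 1.40-fold lower. The median of all tested probe sets moved by -0.13 in the same comparison, and with each array centred on its median the Acvr2a change was -0.31 (adjusted p 0.024). The dimmer probe set, 1451004_at, was not called (-0.15 ± 0.15, adjusted p 0.54), and over the 40 arrays the 2 probe sets hardly moved together (r = 0.0975). In Nrf2-null liver the level at 30 μmol/kg was 9.26 to 9.51, within the range of its vehicle mice (9.20 to 9.65). The genotype difference in this response was -0.42 ± 0.15 (adjusted p 0.064), not called. The genes most like Acvr2a were Tmem68 (r = 0.782), Syncrip (0.772) and Crebzf (0.757).

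Smad7, the feedback inhibitor of the pathway, was not called against vehicle with any treatment in either genotype. Its probe sets moved together over the 40 arrays (r = 0.890). At 30 μmol/kg CDDO-Im, 1443771_x_at was at 7.63, 7.15, 7.69 and 7.59 in Wt mice and at 8.03, 8.77, 7.67 and 8.75 in Nrf2-null mice. One Nrf2-null mouse lay among the Wt mice, and the difference was 0.79 ± 0.27 (adjusted p 0.025). On 1423389_at the difference was 1.19 ± 0.42 (adjusted p 0.027), with no overlap. The median of all probe sets was 0.15 higher in Nrf2-null liver in this comparison, and with arrays centred neither Smad7 difference was called, at 0.57 and 0.97. Both calls were also lost without Nrf2-null replicate 2 or 4, the mice with the highest values. Id1 (r = 0.744), a target gene of BMP signals, was the gene most like Smad7, before Angptl8 (0.677) and Cstf3 (0.621).

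**Figure D4:**
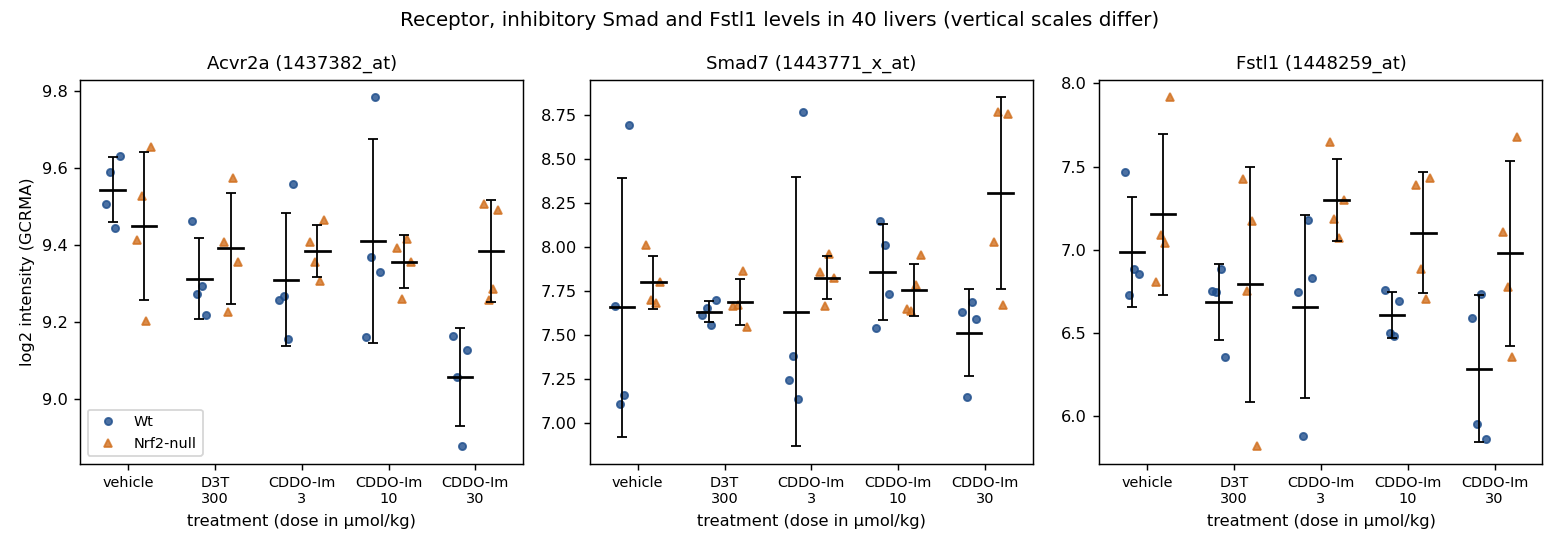
Levels of Acvr2a, Smad7 and Fstl1 on their brighter probe sets in each of 40 livers, as log2 GCRMA intensity against treatment (dose in μmol/kg), with blue circles for Wt mice, orange triangles for Nrf2-null mice and the mean and SD of 4 mice; vertical scales differ and do not start at 0. The 4 Wt mice at 30 μmol/kg CDDO-Im lie between 8.88 and 9.16 for Acvr2a, below all 4 vehicle mice.

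Counted over the 11 tested probe sets, calls against vehicle were few. In Wt liver, 0 were called with D3T (3.16% of all probe sets were called), 0 at 3 μmol/kg CDDO-Im (1.22%), 2 at 10 μmol/kg (17.0%) and 1 at 30 μmol/kg (19.8%), all of them lower. Shares of 2 in 11 and 1 in 11 are near or under these backgrounds, and at an unadjusted p under 0.05 the counts were 1, 1, 3 and 3. Over all 18935 probe sets the counts at that unadjusted p were 3265, 2155, 5750 and 6238. In Nrf2-null liver, 0 of 11 were called with D3T (3.80%), at 3 μmol/kg (1.38%), at 10 μmol/kg (0.444%) or at 30 μmol/kg (0.882%), with 2, 1, 1 and 0 at an unadjusted p under 0.05. The array-wide counts there were 3659, 2839, 2460 and 2062 of 18935. The tests of a genotype difference in response called 0 of 11 for D3T (0.106%), for 10 μmol/kg (6.66%) and for 30 μmol/kg (10.9%), with 1, 2 and 2 at an unadjusted p under 0.05. For these tests the array-wide counts were 2353, 4232 and 5050 of 18935.

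Between treatments in Wt liver, 1 of 11 was called for 10 μmol/kg CDDO-Im against D3T (18.2%), which was Fst, and 0 for 30 μmol/kg against D3T (26.8%), with 1 at an unadjusted p under 0.05. In that last comparison 7179 of all 18935 probe sets had an unadjusted p under 0.05. Between genotypes, 0 of 11 were called with vehicle (11.1%), with D3T (8.81%) and at 3 μmol/kg (8.51%), with 1, 2 and 2 at an unadjusted p under 0.05. The array-wide counts at that p were 4787, 4399 and 4259. At 10 μmol/kg 2 were called (12.6%), Fst higher and the dimmer Acvr2a probe set lower by 0.48 ± 0.15 (adjusted p 0.036) in Nrf2-null liver. The higher dose of 30 μmol/kg had 5 called (33.1%), all higher: both Fst probe sets, both Smad7 probe sets and Acvr2a by 0.33 ± 0.11 (adjusted p 0.017). In that comparison 4885 probe sets were higher and 1387 lower, or 1867 and 3783 with arrays centred, and the Acvr2a difference was then 0.10. In Wt liver at 30 μmol/kg against vehicle the split was 686 higher and 3064 lower, or 1636 and 916 with arrays centred.

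**Figure D5:**
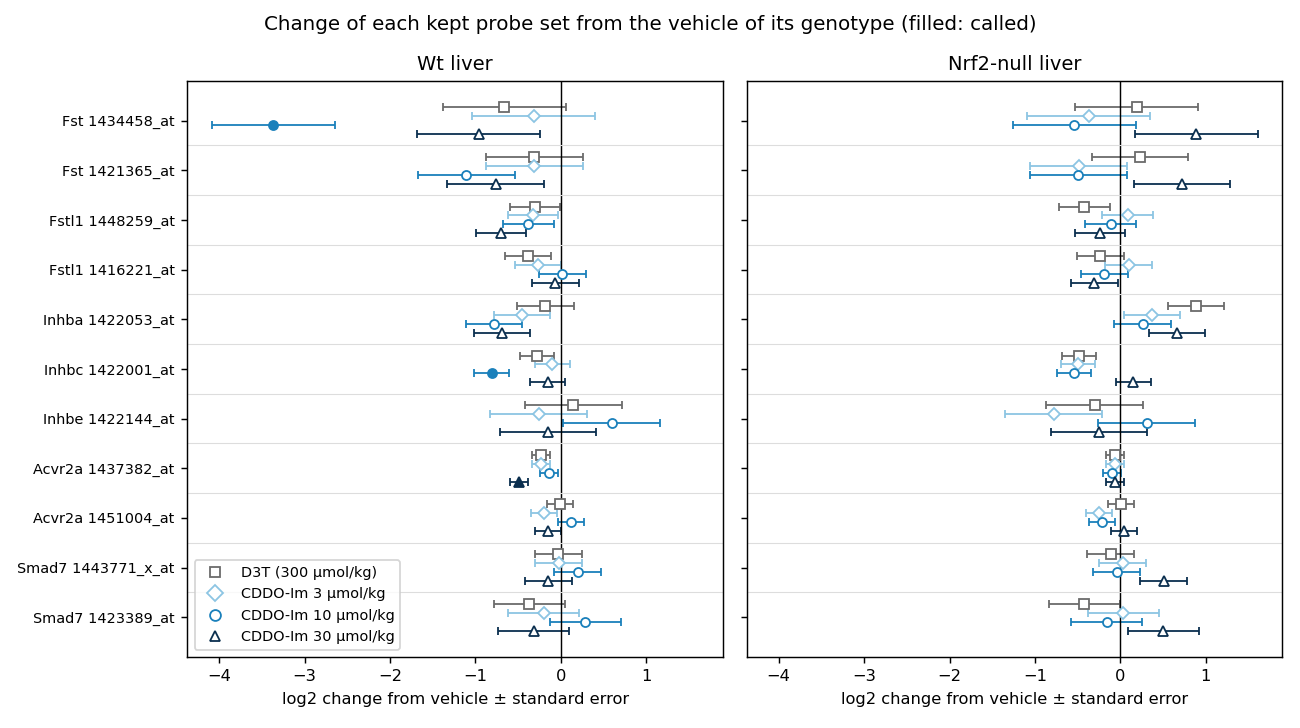
Log2 change from the vehicle group of the same genotype for each of the 11 tested probe sets, with standard errors; symbols mark the treatment, and filled symbols are called. In Wt liver the filled points are Fst and Inhbc at 10 μmol/kg CDDO-Im, at -3.37 and -0.81, and Acvr2a at 30 μmol/kg, at -0.49; no point is filled in Nrf2-null liver.

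The wider pathway was read from a list of 82 ligands, receptors, Smads, antagonists, modulators and target genes, of which 47 were measured. With D3T none was called in Wt liver. At 10 μmol/kg CDDO-Im 3 rose and 4 fell, or 14.9% against 17.3% of all genes, with a median change of -0.10 over the list and -0.08 over all genes. Among those that fell were the Smad target genes Id3, by 1.58 ± 0.50, and Id4, by 1.70 ± 0.35, which encode inhibitors of helix-loop-helix factors. Skil, a repressor of Smad transcription, fell by 1.25 ± 0.23, and Hjv, a BMP coreceptor in iron control, fell by 0.59 ± 0.15. Tgfbr3, a coreceptor for TGF-beta, rose by 0.41 ± 0.13, and Smad4, the shared Smad, rose by 0.27 ± 0.09. With the clock score as a covariate none of the 47 was called at this dose. Calls over all 18935 probe sets also dropped, from 1260 higher and 1951 lower to 59 and 49.

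With 30 μmol/kg 1 gene of the list rose and 7 fell, or 17.0% against 22.3% of all genes, with a median of -0.21 over the list and -0.16 over all genes. Acvr1b, the type I receptor that pairs with Acvr2a, fell by 0.53 ± 0.14. The BMP receptor Bmpr1a fell by 0.39 ± 0.10 and Bmpr2 by 0.20 ± 0.07, the latter close to the median of -0.16 over all genes. Bambi, a decoy receptor, fell by 0.91 ± 0.19, Bmp1 by 0.69 ± 0.18, Smad5 by 0.49 ± 0.11 and the ubiquitin ligase Smurf2 by 0.38 ± 0.08, while Fkbp1a, which binds type I receptors, rose by 0.29 ± 0.10. Over the list the counts at both doses were no larger a share than over all genes. With arrays centred on their medians, 5 genes of the list were called at this dose. Over all 18935 probe sets, 1636 were then called higher and 916 lower.

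Genes known to respond to fasting and to the integrated stress response, both of which are associated with hepatic Fst or Inhbe, were read from lists of 15 and 14 genes. Of 12 measured fasting genes, 1 was called with D3T, Ppargc1a, a coactivator of gluconeogenesis, which rose by 1.10 ± 0.30. At 10 μmol/kg CDDO-Im Pdk4, a kinase that limits pyruvate oxidation, fell by 2.90 ± 0.66, and the transcription factor Foxo3 rose by 0.62 ± 0.15. None was called at 30 μmol/kg, where 22.3% of all genes were called. The share called was 8.33% with D3T against 3.66% of all genes, and 2 of 12 at 10 μmol/kg against 17.3%. Of 11 measured stress response genes, Trib3, a pseudokinase induced by Atf4, rose by 2.70 ± 0.54 at 10 μmol/kg, and Ddit3 fell by 0.62 ± 0.20. Ddit4, at 30 μmol/kg, rose by 1.43 ± 0.39 and Sesn2 by 0.56 ± 0.15, while Ddit3 fell by 0.59 ± 0.20. Sesn2 hardly varied with vehicle, at 5.216 to 5.224, and was at 5.224 to 6.161 at 30 μmol/kg, with the lowest mouse at the vehicle level. Its change is not read as an exact fold. The share called was 18.2% at 10 μmol/kg against 17.3% of all genes and 27.3% at 30 μmol/kg against 22.3%, so that these counts are near those of all genes. All were measured in Wt liver against vehicle.

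Markers of other liver cells are given beside these results. All 7 Kupffer cell markers were measured, and in Wt liver their mean log2 value was 8.47 to 9.15 with vehicle. It was 8.80 to 10.06 at 3 μmol/kg, 8.56 to 9.24 at 10 μmol/kg and 9.17 to 9.46 at 30 μmol/kg, the dose of the Acvr2a result, where it did not overlap vehicle. Marco was the marker called, at both 10 and 30 μmol/kg. The mean of the 7 includes Marco, so its lack of overlap at 30 μmol/kg is not shown for the other markers. Marco was at 2.27 to 3.25 with vehicle, under the minimum, at 3.91 to 5.63 at 10 μmol/kg and at 5.53 to 6.75 at 30 μmol/kg. No exact fold is therefore given, and Marco passed the minimum through the groups where it was high. Endothelial markers, 5 of 6 measured with Pecam1 under the minimum, were at 8.57 to 8.72 at 10 μmol/kg, 8.56 to 8.86 at 30 μmol/kg and 8.80 to 8.99 with vehicle, with none called. Of the bile duct markers, 2 of 5 were measured, Krt7, Krt19 and Spp1 were under the minimum, and Sox9 fell by 0.78 ± 0.26 at 10 μmol/kg. The hepatocyte markers Apoa1 and Cps1 fell by 0.15 ± 0.05 and 0.22 ± 0.05 at 30 μmol/kg, close to the median change of -0.16 over all genes in that comparison. The part of these cells in the Fst, Inhbc and Acvr2a values was not tested.

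The animal numbers in the labels split the mice by treatment and by genotype. In both genotypes the mice given D3T or 30 μmol/kg CDDO-Im carry a lower run of numbers than the mice given vehicle, 3 or 10 μmol/kg. If the numbers mark separate cohorts, treatment and cohort cannot be told apart for D3T and 30 μmol/kg against vehicle, nor for 10 μmol/kg against D3T. This touches the Acvr2a change, the Fst difference of -2.70 from D3T, and the pathway, fasting, stress and marker calls with D3T and at 30 μmol/kg. Vehicle, 3 and 10 μmol/kg share the higher run, and D3T and 30 μmol/kg the lower. Within the higher run of each genotype, the mice given 10 μmol/kg carry consecutive numbers below those of all vehicle and 3 μmol/kg mice. The numbers of the vehicle and 3 μmol/kg mice interleave. The Wt 10 μmol/kg mice, with the Fst and Inhbc falls and the high clock scores, are therefore also set apart from vehicle by number. Within each treatment the Nrf2-null mice carry lower numbers than the Wt mice. The Fst, Smad7 and Acvr2a differences between genotypes are thus set apart by number in the same way. If the numbers mark cohorts, genotype and cohort cannot be told apart there. Whether these blocks mark cohorts was not tested.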

How the data were processed

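Liver RNA of 40 mice was hybridised to Affymetrix whole-genome mouse arrays, 1 per mouse. The deposited values are log2 intensities that the authors made with GCRMA, which corrects background, normalizes the arrays to each other and summarises each probe set. The labels and methods name neither its version nor which arrays went into 1 normalization. Arrays have no read depth, and 4 per group limits the precision. Groups came from the labels.

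Probe sets were named through the platform annotation, and 16472 of 34945 with a single symbol were kept at a log2 minimum of 4 on at least 3 arrays of a group. Differences were tested in limma 3.58.1 (R 4.3.3; lmFit over 10 groups, eBayes with trend and robust) and adjusted by Benjamini-Hochberg over 18935 probe sets. A run on simulated data with 50 probe sets per step, for Wt 10 μmol/kg CDDO-Im against vehicle, called 40% of log2 changes of 0.5, 92% of 1 and 98% of 2. The probe sets were drawn at random from all those tested, with normal noise of their own spread. The rates are therefore not those of a gene as variable as Fst, with mean SDs within groups of 0.94 and 0.73 on its probe sets. For genes with 2 tested probe sets, the one of higher mean stands for the gene in list counts.

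The members and gene lists were chosen with earlier results of these data known. Named from lists were up to 4 called genes of largest change at 30 μmol/kg and up to 2 each with D3T and 10 μmol/kg, and the genes of highest Pearson correlation with a member (5 for Fst, 3 for the others). The clock score, its covariate fit, comparisons of genotypes within D3T and CDDO-Im, and the last 3 promoter motifs were added after seeing the data. Alternatives tried were arrays centred on medians, other minimums, 1 probe set per gene, no trend or robust step, each genotype alone, a replicate block, the study's rank procedure (with the log2 minimum in place of its present calls) and leaving out each mouse. Some marker genes are not reported here.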

Additional observations from a re-analysis of the deposited data

Results flagged for a closer look

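Single mice stood apart from the other 3 of their group by Dixon's test in 6 of the 110 groups of 4 mice tested, and chance alone gives about 1 in 20. Inhbe was at 9.31 in Nrf2-null vehicle replicate 1, against 6.83 to 7.04 in the others. In Wt mice at 3 μmol/kg CDDO-Im, replicate 4 was high on both Smad7 probe sets, at 8.77 against 7.14 to 7.38 on 1443771_x_at and at 7.62 against 5.21 to 5.33 on 1423389_at. Replicate 1 was low on the dimmer Acvr2a probe set, 1451004_at, in Wt vehicle mice (6.33 against 6.65 to 6.70) and in Wt D3T mice (6.12 against 6.72 to 6.74). Inhbc was at 8.40 in Wt 30 μmol/kg CDDO-Im replicate 1, against 8.22 to 8.24 in the others.

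The change of Inhba at 3 μmol/kg CDDO-Im against the mean of its vehicle group was negative in every Wt mouse (mean -0.45) and positive in every Nrf2-null mouse (mean 0.37). The gap between the genotypes was -0.82 on the log2 scale, and this difference was not tested. The mice overlapped between vehicle and 3 μmol/kg in both genotypes, and without Wt vehicle replicate 2, at 9.37, the Wt change was 0.02.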

How the results depend on the processing

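No called result changed direction under any of these alternatives. Without an expression minimum, 1 member probe set was called between genotypes at 10 μmol/kg CDDO-Im, 3 at 30 μmol/kg, and 4 pathway genes at 10 μmol/kg against vehicle in Wt liver. Of all 45037 probe sets, 983 were called higher and 619 lower between genotypes at 10 μmol/kg, and 4155 and 1866 at 30 μmol/kg. Against vehicle in Wt liver, 960 were called higher and 1384 lower at 10 μmol/kg. Centring arrays on their medians gave 1 between genotypes at 3 μmol/kg, 2 at 30 μmol/kg, and 5 pathway genes at 30 μmol/kg. With 1 probe set per gene, 1 was called between genotypes at 10 and 3 at 30 μmol/kg. Of all 9695 genes, 1090 were called higher and 323 lower at 10 μmol/kg, and 3070 and 666 at 30 μmol/kg. Fitting Wt arrays alone gave 2 members and 14 pathway genes at 30 μmol/kg and 2 pathway genes with D3T. Calls over all 18935 probe sets were then also more: 841 higher and 3649 lower at 30 μmol/kg, and 728 and 506 with D3T. The study's rank procedure, with the log2 minimum of 4 in place of its present calls, called 1 member at 10 μmol/kg, Fst, and 0 for 10 μmol/kg against D3T. It called 1568 and 1347 probe sets in these comparisons, of 3799 that passed its minimum and fold steps. The clock score as a covariate gave 0 members at 10 μmol/kg and 0 for 10 μmol/kg against D3T. It gave 0 pathway genes at 10 μmol/kg and 1 member between genotypes at 10 μmol/kg. Over all probe sets, that fit called 59 higher and 49 lower at 10 μmol/kg against vehicle, and 714 and 1087 against D3T. Between genotypes at 10 μmol/kg it called 1003 higher and 505 lower. The causes were not tested.

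Leaving out each mouse in turn gave 2 to 3 member probe sets at 10 μmol/kg and 1 to 2 at 30 μmol/kg against vehicle in Wt liver, 0 to 1 in Nrf2-null liver with D3T and with 10 μmol/kg, and 1 to 2 for 10 μmol/kg against D3T. Between genotypes it gave 0 to 1 with vehicle, with D3T and at 3 μmol/kg, 1 to 2 at 10 μmol/kg and 2 to 6 at 30 μmol/kg. The genotype differences in response gave 0 to 1 at 10 μmol/kg, where Fst was called without Wt 10 μmol/kg replicate 2 (-3.33) or without Nrf2-null vehicle replicate 4 (-3.66). At 30 μmol/kg they gave 0 to 3, with Inhba called without Wt vehicle replicate 1 (-1.70) or 3 (-1.52), Nrf2-null vehicle replicate 4 (-1.51) or Nrf2-null 30 μmol/kg replicate 2 (-1.54). Pathway genes numbered 3 to 8 at 10 μmol/kg, with 3 and 4 without Wt vehicle replicate 2 or 3, and 6 to 10 at 30 μmol/kg. Counts over all probe sets in the fits that leave out a mouse are not given here. The calls of Fst and Inhbc at 10 μmol/kg and of Acvr2a at 30 μmol/kg in Wt liver held in all 8 such fits (log2 -3.87 to -2.86, -0.99 to -0.66 and -0.52 to -0.43). Between genotypes at 30 μmol/kg, Acvr2a lost its call without Wt replicate 3 (0.27) or Nrf2-null replicate 1 (0.29) or 4 (0.29), and the brighter Smad7 probe set without Wt replicate 2 (0.67) or Nrf2-null replicate 2 or 4 (both 0.64). The dimmer Smad7 probe set lost it without Wt replicate 3 (1.07) or Nrf2-null replicate 2 (0.97) or 4 (1.00), and at 10 μmol/kg the dimmer Acvr2a probe set lost its call in 4 of 8 fits.

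Replicate numbers did not pair the mice: over 180 pairs of the same number the median correlation of deviations was 0.00847 (range -0.259 to 0.367). With a replicate block, 2 member probe sets were called at 10 μmol/kg and 1 at 30 μmol/kg in Wt liver, and the count changed in no comparison. Over all 18935 probe sets, that fit called 1272 higher and 1950 lower at 10 μmol/kg, and 680 and 3055 at 30 μmol/kg.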
